A study of Homo sapiens with 16 samples.

Results

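The genistein response of the pancreatic ductal carcinoma line PANC1 was compared with that of the line MiaPaCa2 as a difference of differences: the log2 fold change of genistein against control in PANC1 minus the same fold change in MiaPaCa2. The comparison rests on 8 of the 16 RNA sequencing libraries of the study, 2 of each group: MiaPaCa2 control, MiaPaCa2 genistein, PANC1 control and PANC1 genistein. Genistein was given at 50 µM for 24 h, and the controls were cultured for the same 24 h without drug. Drugs other than gemcitabine were dissolved in DMSO, and the labels do not say whether control wells received it. The other 8 libraries hold the gemcitabine and co-treatment groups of both lines, with 40 nM gemcitabine, and served to estimate the spread and to repeat the comparison in separate libraries. Each line is 1 established cell line, so that a difference between them is a difference between these lines.

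Genistein is an isoflavone of soy. It binds estrogen receptors, with a preference for the beta form, and is a classical inhibitor of protein tyrosine kinases and of topoisomerase II. MiaPaCa2 and PANC1 are both derived from pancreatic carcinomas, in which ERK signalling is commonly a constant drive.

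The 8 libraries held between 12943482 and 31991860 counted reads, and 17863 genes passed the low-count filter. The epithelial keratins KRT8, KRT18 and KRT19 had at least 2590 reads in every library, whereas KRT7 had 1 to 123 and EPCAM, an epithelial adhesion molecule, 0 to 443. The endothelial marker PECAM1, the fibroblast marker DCN and the hormone INS had 0 reads in all 8. Some other endothelial and fibroblast markers were read. COL3A1 (fibroblast) had 10 to 118 reads, CDH5 (endothelial) ranged from 0 to 1.72 FPKM and PDGFRB (fibroblast) from 0 to 2.93 FPKM. The mesenchymal marker VIM had 60708 to 173790 reads. A library of the PANC1 control, replicate I, stood apart. The log2 ratio between the replicates of this group correlated with gene GC content (Spearman 0.701), against coefficients from -0.296 to 0.408 in the other 3 groups, and its trend over GC content was 0.297 log2 units per 10 percentage points against -0.073 in replicate II. In the highest of 6 classes of GC content, above 60%, the median PANC1 response was -0.51 and the median MiaPaCa2 response 0.00 on the log2 scale. In the lowest class, of at most 40%, these medians were 0.04 and -0.18. For this reason results are given from the counts as deposited and, for the main counts and the calls named, also after the trend with GC content was removed from each library (GC-corrected).

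Both lines changed many genes, and few of these changes could be told apart between the lines. Genes were called within a line at an adjusted p of at most 0.05 (limma-voom, Benjamini-Hochberg), a log2 fold change of 0.4 or more in either direction, and a mean FPKM of over 1 under genistein. In PANC1 366 genes rose (2.05% of the genes tested) and 349 fell (1.95%). In MiaPaCa2 407 rose (2.28%) and 180 fell (1.01%). Of these, 118 genes (0.661%) moved the same way in both lines, 13 of them down and the rest up, which are 16.5% of the PANC1 genes and 20.1% of the MiaPaCa2 genes. Another 2 genes, NPTX1 among them, were called in opposite directions (0.0112%).

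The direct test of the difference, limma-voom on all 16 libraries with an adjusted p of at most 0.05, called 6 genes (0.0336%). The response of 1 gene was more positive in PANC1 (0.0056%) and that of 5 was more positive in MiaPaCa2 (0.028%). At an unadjusted p under 0.05 there were 2057. None of the 595 genes called in PANC1 alone, and 3 of the 467 called in MiaPaCa2 alone, passed this test. Of the 595 genes, 466 (78.3%) had the same sign of fold change in MiaPaCa2, where their median response in the PANC1 direction was 0.22 on the log2 scale. Of the 467 genes, 390 (83.5%) had the same sign in PANC1, with a median of 0.26. Over all genes tested the signs matched in 59.4%.

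After GC correction 17488 genes were tested and 611 differences were called (3.49%), including all 6 above. The response of 201 genes (1.15%) was more positive in PANC1 and that of 410 (2.34%) in MiaPaCa2. Within the lines 624 genes rose (3.57%) and 886 fell (5.07%) in PANC1, and 767 rose (4.39%) and 718 fell (4.11%) in MiaPaCa2. Rises made up 51.6% of the MiaPaCa2 calls, against 69.3% as deposited, and 41.3% of the PANC1 calls, against 51.2%. In both lines 368 changed in the same direction (2.1%) and 15 in opposite directions (0.0858%). Of the 118 shared calls from the counts as deposited, 68 remained. Of the 1127 genes then called in PANC1 alone 159 passed the test of the difference, as did 168 of the 1102 called in MiaPaCa2 alone. Across genes, the responses of the lines had a Spearman correlation of 0.271 as deposited and 0.354 after correction, given as a description over genes that share the same libraries. Without PANC1 control replicate I, and without GC correction, the test called 10 differences, 573 genes in PANC1, 975 in MiaPaCa2, 199 in both in the same direction and 2 in opposite directions.

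**Figure D1:**
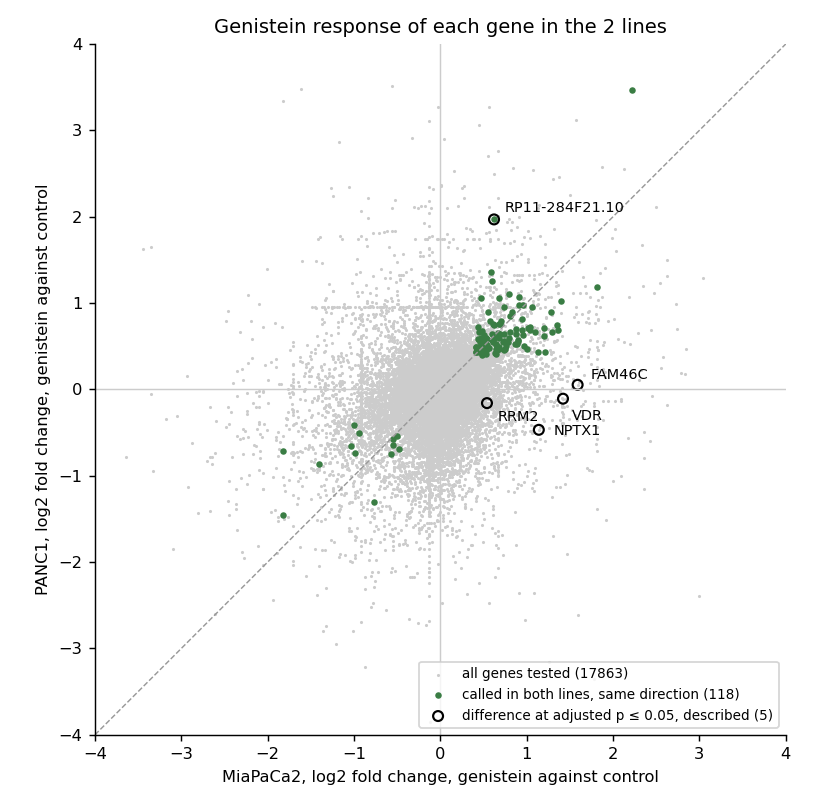
Each point is a gene, with its log2 fold change under genistein in MiaPaCa2 on the x axis and in PANC1 on the y axis; the dashed line marks equal responses, and 7 genes lie beyond the axis limit of 4. The 118 shared calls (green) lie in the upper right and lower left, and 4 of the 5 genes described for their difference (circles) lie below the dashed line on the right.

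VDR, the nuclear receptor of vitamin D, responded in MiaPaCa2. Its level was 2.98 and 3.29 CPM (read counts scaled by library size) in the MiaPaCa2 control libraries and 8.55 and 8.31 under genistein. In PANC1 it was 10.0 and 9.57 in the controls and 9.15 and 8.95 under genistein. VDR rose by a log2 fold change of 1.42 ± 0.16 (SE) in MiaPaCa2, to a level close to that of PANC1, and the PANC1 fold change was -0.11 ± 0.13. In bulk libraries, a change in the level per cell and a change in the number of cells that express a gene cannot be told apart. The difference, -1.53 with a 95% confidence interval from -1.97 to -1.08, had an adjusted p of 0.0279 (limma-voom).

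RRM2 encodes the small subunit of ribonucleotide reductase, which makes deoxynucleotides and is the target of the active form of gemcitabine. It had nearly the same level in the controls of both lines, 549 and 536 CPM in MiaPaCa2 and 547 and 554 CPM in PANC1. Under genistein it was 803 and 776 CPM in MiaPaCa2 and 483 and 504 CPM in PANC1. RRM2 rose by 0.54 ± 0.07 in MiaPaCa2, its PANC1 fold change of -0.16 ± 0.07 did not pass the test, and the difference was -0.70 (interval -0.91 to -0.49, adjusted p = 0.0279, limma-voom). After GC correction RRM2 had log2 fold changes of 0.46 and -0.31, with adjusted p-values of 2.4e-05 and 5.7e-04, and the PANC1 value stayed under the 0.4 needed for a call.

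FAM46C, a noncanonical poly(A) polymerase that stabilizes mRNA, stood at 2.80 and 3.14 CPM in the MiaPaCa2 controls and at 9.45 and 8.59 CPM under genistein. In PANC1 it was expressed at 51.4 and 49.7 CPM in the controls and 53.1 and 51.7 CPM under genistein. The 1.59 ± 0.19 rise in MiaPaCa2 was met by 0.05 ± 0.10 in PANC1 (difference -1.54, interval -2.01 to -1.07, adjusted p = 0.0279, limma-voom).

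NPTX1, a secreted neuronal pentraxin, moved in opposite directions. NPTX1 rose in MiaPaCa2 from 3.10 and 2.68 CPM to 6.74 and 6.23 CPM and fell in PANC1 from 36.5 and 34.0 CPM to 27.1 and 23.7 CPM. The line with the lower control level rose and the line with the higher one fell. In MiaPaCa2 the mean FPKM of NPTX1 under genistein, 1.01, lay just above the 1 needed for a call. The difference was -1.61 (interval -2.11 to -1.11) at an adjusted p of 0.0279 (limma-voom). After GC correction the PANC1 fold change of NPTX1 was -0.33, which is no longer a call.

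The gene with the more positive response in PANC1 was RP11-284F21.10 (ENSG00000272405), annotated as a long noncoding RNA on the minus strand of chromosome 1 (GRCh37, chr1:156611458-156614679). It rose in PANC1 from 4.11 and 3.41 CPM to 15.0 and 14.0 CPM, and in MiaPaCa2, where it was more abundant, from 62.6 and 57.7 CPM to 95.3 and 90.5 CPM. The fold changes were 1.97 ± 0.16 and 0.62 ± 0.10, with a difference of 1.35 (interval 0.94 to 1.75, adjusted p = 0.0279, limma-voom). Its neighbour on the same strand, RP11-284F21.9 (chr1:156607575-156610796), had 0.652 and 0.563 CPM in the PANC1 controls and 2.42 and 1.81 CPM under genistein. Its PANC1 fold change of 1.78 had an adjusted p of 0.0173 (limma-voom), but at a mean FPKM of 0.561 it was too low for a call. RP11-284F21.9 had 15.8, 16.4, 14.3 and 15.7 CPM in the MiaPaCa2 control and genistein libraries. The difference of 1.87 for RP11-284F21.9 (interval 1.06 to 2.69) had an adjusted p of 0.108 and passed after GC correction.

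In GRCh37 the other 4 genes lie at chr12:48235320-48336831 (VDR, minus strand), chr2:10260825-10351851 (RRM2, plus), chr1:118148670-118171011 (FAM46C, plus) and chr17:78440634-78451643 (NPTX1, minus).

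These 5 differences kept their sign in each of 21 other analyses, but not their call: each gene passed in 9 or 10 of them, with adjusted p-values between 1.4e-07 and 0.412 over the 5 genes (limma-voom, edgeR or DESeq2). Leaving out any 1 of the 4 MiaPaCa2 libraries or of the 2 PANC1 genistein libraries ended all 6 calls, at 1239 to 2033 genes with an unadjusted p under 0.05.

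**Figure D2:**
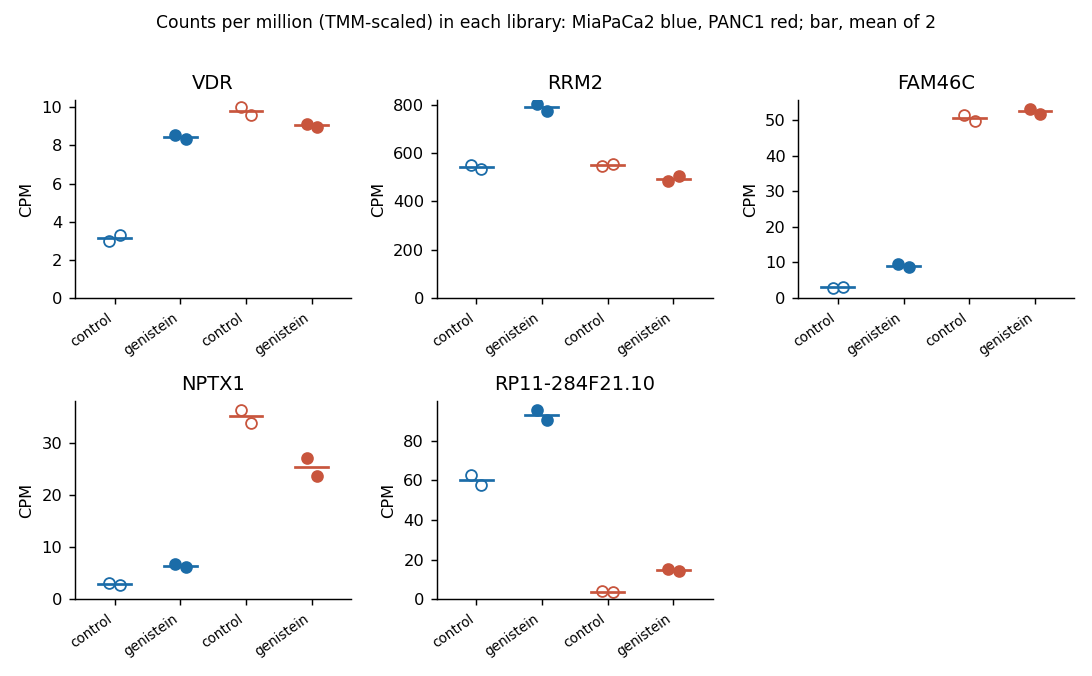
CPM in each of the 8 libraries (points) for the 5 genes described for their difference, with the mean of the 2 libraries of a group as a bar; open points are controls and filled points genistein. MiaPaCa2 (blue) rises in all 5 panels, whereas PANC1 (red) falls in NPTX1 and rises in RP11-284F21.10.

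The promoters of RRM2 and FAM46C are shown as the 250 bases before the RefSeq transcription start of each gene, 5′ to 3′ on the strand of the gene. The windows were taken from RefSeq (GRCh38.p14) and placed by exact match in GRCh37, RRM2 at chr2:10262616-10262865 and FAM46C (now TENT5C) at chr1:118148420-118148669, both on the plus strand. Capitals mark matches, on either strand, to 8 short motifs: the xenobiotic response element core GCGTG, the C/EBP-ATF element TGATGNAAN, the cAMP response element TGACGTCA, the AP-1 site TGAGTCA, the antioxidant response element TGACNNNGC, the CCAAT box CCAAT, the heat shock element GAANNTTC and the E-box CACGTG.
RRM2: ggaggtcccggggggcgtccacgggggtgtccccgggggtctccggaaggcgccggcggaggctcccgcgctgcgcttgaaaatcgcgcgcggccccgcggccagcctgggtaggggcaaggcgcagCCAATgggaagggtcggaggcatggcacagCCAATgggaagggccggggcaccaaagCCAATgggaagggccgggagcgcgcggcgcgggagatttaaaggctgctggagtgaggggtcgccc
FAM46C: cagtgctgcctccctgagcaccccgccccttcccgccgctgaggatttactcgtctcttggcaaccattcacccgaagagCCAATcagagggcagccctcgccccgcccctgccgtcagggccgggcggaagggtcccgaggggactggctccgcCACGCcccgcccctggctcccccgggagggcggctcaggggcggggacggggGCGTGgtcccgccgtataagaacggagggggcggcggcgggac
RRM2 held 3 CCAAT boxes, at positions -123, -93 and -66. FAM46C held 1 CCAAT box at -170 and 2 xenobiotic cores at -95 and -43. These are common letters: of 27305 promoter windows of the same length, 33% hold a CCAAT box and 31.9% a xenobiotic core.

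DDIT3 and ASNS, members of the integrated stress response and its amino acid branch, rose in both lines. DDIT3, the transcription factor CHOP of the integrated stress response, was 9.49 and 9.73 CPM in MiaPaCa2 controls and 17.7 and 18.3 CPM under genistein. In PANC1 it was 26.5 and 27.1 CPM in the controls and 58.7 and 53.6 CPM under genistein. DDIT3 rose by 0.91 ± 0.14 in MiaPaCa2 and by 1.06 ± 0.10 in PANC1 (adjusted p = 0.00395 and 6.7e-04, limma-voom), and the difference of 0.16 had an interval from -0.21 to 0.53. ASNS, asparagine synthetase, rose from 174 and 164 CPM to 235 and 233 CPM in MiaPaCa2 and from 310 and 288 CPM to 591 and 657 CPM in PANC1. The ASNS fold changes were 0.47 ± 0.09 and 1.06 ± 0.08, and their difference of 0.59 (interval 0.34 to 0.85) did not pass, with an adjusted p of 0.108 (limma-voom).

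The promoters of DDIT3 (chr12:57914298-57914547) and ASNS (chr7:97501721-97501970), both on the minus strand of GRCh37, are given in the same way because both genes rose in both lines.
DDIT3: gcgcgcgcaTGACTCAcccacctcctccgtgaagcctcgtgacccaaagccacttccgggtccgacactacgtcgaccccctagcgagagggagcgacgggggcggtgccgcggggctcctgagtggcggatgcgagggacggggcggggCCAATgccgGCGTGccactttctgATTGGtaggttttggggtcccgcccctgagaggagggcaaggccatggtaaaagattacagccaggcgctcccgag
ASNS: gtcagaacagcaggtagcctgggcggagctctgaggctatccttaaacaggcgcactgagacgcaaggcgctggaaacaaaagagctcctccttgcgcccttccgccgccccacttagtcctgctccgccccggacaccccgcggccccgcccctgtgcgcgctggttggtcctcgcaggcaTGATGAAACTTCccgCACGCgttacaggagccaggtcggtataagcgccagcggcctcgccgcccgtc
ASNS held the C/EBP-ATF element at -68, which 3.18% of all windows hold, and it overlaps the heat shock letters at -64 (5.85% of windows). DDIT3 held an AP-1 match on the opposite strand at -241 (4.16% of windows), CCAAT boxes at -100 and -76 and a xenobiotic core at -91. Of the 18 genes looked up, which were the 5 described for their difference, the 12 named for the shared response and ASNS, 11 had a RefSeq window. C/EBP-ATF letters were found in 1 of the 11, CCAAT boxes in 6 and xenobiotic cores in 7. NPTX1, VDR and NGFR were among those without a window.

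Other shared rises were NGFR, the p75 neurotrophin receptor, NPL, which cleaves sialic acid, TNFSF9, the ligand of the costimulatory receptor 4-1BB, and RIMKLA, a synthetase of N-acetylaspartylglutamate. NGFR was 10.5 and 10.6 CPM in the MiaPaCa2 controls and 43.9 and 32.2 CPM under genistein, and 6.97 and 4.38 against 11.7 and 12.7 CPM in PANC1. The log2 fold changes of NGFR were 1.81 ± 0.23 and 1.19 ± 0.27. NPL rose by 1.40 in MiaPaCa2 and 1.03 in PANC1, TNFSF9 by 1.06 and 0.96, and RIMKLA by 0.95 and 0.98. The intervals of their differences all held 0 and were widest for NGFR, from -1.39 to 0.14, and narrowest for RIMKLA, from -0.48 to 0.53. The named gene with the highest fold change in both lines, CTD-2555K7.2, rested on 1 and 2 reads in the MiaPaCa2 controls and 0 and 1 in the PANC1 controls, against 7 and 12 and 4 and 5 reads under genistein.

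Shared falls were fewer. KIF20B, a mitotic kinesin, fell from 29.4 and 28.0 CPM to 6.66 and 9.30 CPM in MiaPaCa2 and from 13.8 and 24.2 CPM to 6.72 and 6.92 CPM in PANC1, by 1.83 and 1.45 on the log2 scale. MUC1, the transmembrane mucin of ductal cells, fell from 10.2 and 11.7 CPM to 3.94 and 4.16 CPM in MiaPaCa2 and from 32.4 and 26.9 CPM to 17.0 and 15.0 CPM in PANC1. The fold changes of MUC1 were -1.41 ± 0.19 and -0.87 ± 0.14, and the difference of 0.54 (interval 0.04 to 1.05) had an adjusted p of 0.406 but passed after GC correction, at 0.80. LRP1, an endocytic receptor, fell by 0.99 and 0.74, with a difference of 0.25 (interval -0.25 to 0.75) that was 0.51 and called after GC correction. The deposited FPKM of LRP1 went the other way in PANC1, with a mean of 4.81 in the controls and 6.08 under genistein. AHSA2, related to an activator of HSP90, fell by 1.04 and 0.65. P2RY11 and AC084018.1 were the other named falls, and the difference of AC084018.1 was also called after GC correction. Of the 12 genes named for the shared response, P2RY11 was the one that lost its call in PANC1 after GC correction.

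The integrated stress response slows translation in general while ATF4 activates genes that restore amino acid supply. In the list of 15 integrated stress response regulators, 5 rose in PANC1 (ATF3, ATF4, CEBPG, CHAC1, DDIT3), 2 in MiaPaCa2 (DDIT3, PPP1R15A) and none fell. Of all genes 2.05% rose in PANC1 and 2.28% in MiaPaCa2. The median fold change was 0.49 in PANC1 and 0.15 in MiaPaCa2, against 0.02 and -0.01 over all genes tested. ATF4, the central activator of the pathway, was 132 and 128 CPM in MiaPaCa2 controls and 150 and 154 CPM under genistein, and rose in PANC1 from 164 and 134 CPM to 258 and 260 CPM. The difference of ATF4 was 0.59 (interval 0.31 to 0.88, adjusted p = 0.152, limma-voom). ATF3 rose in PANC1 from 6.92 and 5.63 CPM to 15.9 and 19.0 CPM, and was 2.67 and 1.61 against 2.88 and 4.58 CPM in MiaPaCa2. None of the list passed the test of the difference as deposited. After GC correction 9 members rose in PANC1 and 3 in MiaPaCa2, against 3.57% and 4.39% of all genes, and CEBPG lost its call. The differences of 6 were then more positive in PANC1 (ATF4, TRIB3, SESN2, DDIT4, SLC7A11, VLDLR) and that of 1 in MiaPaCa2 (ATF5), against 1.15% and 2.34% of all genes. The median difference went from 0.34 to 0.65.

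Of 19 genes of amino acid synthesis and transport, 7 rose in PANC1 (ASNS, PSAT1, CTH, GPT2, SLC1A4, MTHFD2, ALDH1L2) and 1, ASNS, in MiaPaCa2, where 2.05% and 2.28% of all genes rose. PSAT1, of serine synthesis, rose in PANC1 from 199 and 210 CPM to 322 and 365 CPM and was 235 and 240 against 255 and 264 CPM in MiaPaCa2, a difference of 0.61 (interval 0.36 to 0.87, adjusted p = 0.108). After GC correction MTHFD2 lost its call, and 6 differences were called, all more positive in PANC1 as were 1.15% of all genes (PSAT1, PYCR1, SLC7A5, SLC6A9, GPT2, SLC1A4). PYCR1 and SLC7A5 had differences of -0.04 and -0.03 as deposited and 0.51 and 0.37 after the correction. In the gemcitabine and co-treatment libraries the GC-corrected difference of SLC7A5 was called in the opposite direction, at -0.38 (adjusted p = 0.0038, limma-voom). Among 12 cytosolic aminoacyl-tRNA synthetases, which load tRNAs with amino acids, AARS rose in both lines and IARS in PANC1. Their median difference was 0.31, against 0.02 over all genes, and after GC correction 1 difference, that of WARS, was called. AARS then kept its call in PANC1 only, and IARS lost its call.

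Among genes of oxidative defence and iron storage, which NRF2 activates, 3 rose in both lines. Of 19 tested genes of the NRF2 pathway and ferritin, 7 rose in PANC1 and 3 in MiaPaCa2, against 2.05% and 2.28% of all genes. The 3 were NQO1, a quinone reductase, and FTH1 and FTL, the ferritin subunits. NQO1 was 2686 and 2593 CPM in the MiaPaCa2 controls and 3767 and 3619 CPM under genistein, and 462 and 407 against 684 and 699 CPM in PANC1. The fold changes were 0.48 and 0.68 for NQO1, 0.43 and 0.72 for FTH1 and 0.57 and 0.80 for FTL, and none of the 3 differences passed as deposited. In PANC1 alone GCLC, TXNRD1, ME1 and PGD were called. PGD missed the MiaPaCa2 call by the fold criterion of 0.4 only, at 0.38 (adjusted p = 0.0345, limma-voom) against 0.42 in PANC1. ABCC2, an export pump for conjugated drugs, fell in MiaPaCa2 from 211 and 204 CPM to 123 and 126 CPM and was 5.46 and 6.66 against 7.27 and 8.43 CPM in PANC1. Its difference of 1.10 (interval 0.72 to 1.48) had an adjusted p of 0.0619 (limma-voom) and was called after GC correction. So were the differences of FTL, ME1, TXNRD1, TKT and SLC7A11, all more positive in PANC1, as were 1.15% of all genes. After GC correction FTH1 lost its call in MiaPaCa2 and PGD that in PANC1, so that NQO1 and FTL were the 2 of the 3 still called in both lines. SLC7A11, the cystine importer, was 10.6 and 10.0 CPM in MiaPaCa2 controls and 4.60 and 3.68 CPM under genistein, whereas in PANC1 it was 9.93 and 18.1 against 18.9 and 18.4 CPM, with the control libraries far apart.

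Of the lipid genes, 2 were called in both lines as deposited and 1, INSIG1, after GC correction. SCD, the stearoyl-CoA desaturase, and INSIG1, the feedback regulator of sterol synthesis, rose in both lines, SCD by 0.45 in MiaPaCa2 and 0.66 in PANC1 and INSIG1 by 0.81 and 0.67. Of all genes 2.05% rose in PANC1 and 2.28% in MiaPaCa2. Of 10 tested genes of fatty acid synthesis, 4 rose in PANC1 (SCD, FADS1, FADS2, ME1) and 2 in MiaPaCa2 (SCD, ACLY). After GC correction FADS1, FADS2 and ME1 were more positive in PANC1, as were 1.15% of all genes. SCD and ACLY lost their MiaPaCa2 calls. Of the list none then rose and 1 fell in MiaPaCa2, against 4.39% and 4.11% of all genes. Of 22 genes of cholesterol synthesis and uptake 4 rose in MiaPaCa2, EBP and INSIG1 among them, and 1, INSIG1, in PANC1, and EBP lost its call after GC correction. SQSTM1, an autophagy adaptor, rose in both lines by 0.69 and 0.76, and its difference of 0.06 (interval -0.31 to 0.43) became 0.32 after GC correction, when it was called.

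**Figure D3:**
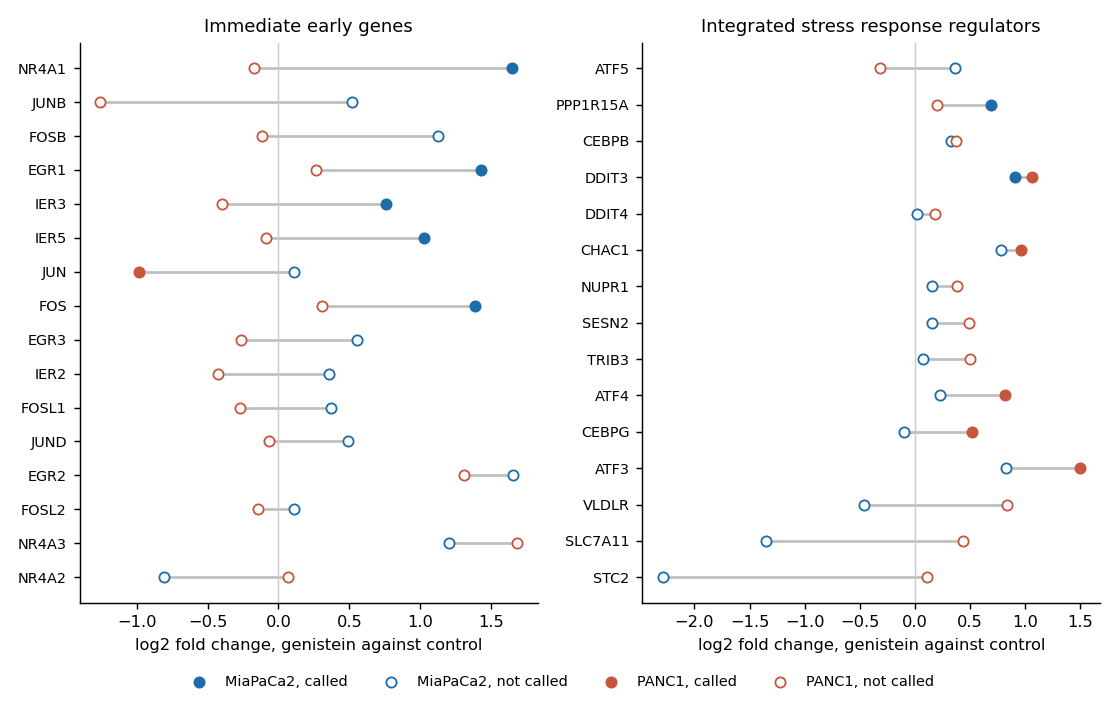
Log2 fold change under genistein of each of the 16 immediate early genes and 15 integrated stress response regulators, in MiaPaCa2 (blue) and PANC1 (red), with filled points for genes called within the line. The MiaPaCa2 point lies to the right of the PANC1 point in 14 of the 16 immediate early genes, and the PANC1 point to the right in 13 of the 15 stress regulators.

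The immediate early genes, transcription factors and regulators induced within minutes of growth factor and ERK signalling, had the most negative median difference of the 34 gene lists. Of 16 members 5 rose in MiaPaCa2 (EGR1, FOS, NR4A1, IER3, IER5) and none in PANC1, where JUN fell. Of all genes 2.28% rose in MiaPaCa2 and 2.05% in PANC1. EGR1, FOS and NR4A1 could not be called in PANC1, where their mean FPKM under genistein was 0.37, 0.44 and 0.97, below the 1 needed. EGR2, EGR3, NR4A2 and NR4A3 had means under 1 CPM in both PANC1 groups, so the list median rests in part on genes hardly read there. The median fold change was 0.65 in MiaPaCa2 and -0.13 in PANC1, with a median difference of -0.95. IER5 was 16.2 and 17.9 CPM in MiaPaCa2 controls and 33.9 and 35.4 CPM under genistein, and 56.2 and 48.3 against 49.9 and 47.4 CPM in PANC1. IER5 had a difference of -1.12 (interval -1.52 to -0.71, adjusted p = 0.0643, limma-voom). EGR1, a zinc finger activator, rose in MiaPaCa2 from 31.4 and 29.7 CPM to 84.9 and 80.4 CPM, and in PANC1 its level was between 0.938 and 1.73 CPM in all 4 libraries. NR4A1, an orphan nuclear receptor, rose in MiaPaCa2 from 0.547 and 1.23 CPM to 2.14 and 2.93 CPM and was 1.55 and 1.16 against 1.33 and 0.978 CPM in PANC1. JUN was 58.6 and 46.3 CPM in PANC1 controls and 24.2 and 28.0 CPM under genistein, and 55.2 and 55.7 against 64.4 and 56.2 CPM in MiaPaCa2. None of the 16 differences passed as deposited. After GC correction 7 members rose in MiaPaCa2 and 1 in PANC1, against 4.39% and 3.57% of all genes. The median difference was then -0.75. The differences of FOSL1, JUN, JUNB, IER3 and IER5 were called, all more positive in MiaPaCa2, as were 2.34% of all genes.

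In the arms with gemcitabine the median difference of the immediate early genes was 0.03. That of the stress response regulators was 0.34 without and 0.01 with gemcitabine. Whether the list medians differ between the arms was not tested.

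Among 13 ERK feedback genes, DUSP5, a nuclear ERK phosphatase, rose in both lines, and DUSP6, its cytoplasmic counterpart, and ETV4 rose in MiaPaCa2, and ETV4 was called in both lines after GC correction. PHLDA1 and SPRY1, an inhibitor of receptor tyrosine kinase signalling, fell in PANC1. Of all genes 2.28% rose in MiaPaCa2, and 2.05% rose and 1.95% fell in PANC1. DUSP6 was 19.6 and 19.5 CPM in MiaPaCa2 controls and 38.1 in both genistein libraries, against 15.2, 14.2, 15.3 and 17.0 CPM in the PANC1 control and genistein libraries. PHLDA1 was 383 and 378 CPM in PANC1 controls and 222 and 232 CPM under genistein, whereas it was 379 and 375 against 355 and 343 CPM in MiaPaCa2. The difference was -0.82 for DUSP6 (adjusted p = 0.117, limma-voom) and -0.63 for PHLDA1 (adjusted p = 0.0938), and both were called after GC correction with SPRY1. CTGF and CYR61, matrix proteins and targets of the coactivator YAP, were called in MiaPaCa2 alone. CTGF was 7.78 and 7.89 CPM in MiaPaCa2 controls and 15.3 and 13.7 CPM under genistein, and 47.6, 44.9, 49.0 and 49.5 CPM in PANC1. After GC correction the differences of these 2 of the 14 YAP target genes were called, with those of AMOTL2 and WWTR1. All were more positive in MiaPaCa2, as were 2.34% of all genes. The list as a whole did not lean that way. Its median difference was 0.11 as deposited and 0.09 after correction, and in both 8 members were more positive in PANC1 and 6 in MiaPaCa2.

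CDKN1A, the cyclin-dependent kinase inhibitor p21, was 6.14 and 5.67 CPM in MiaPaCa2 controls and 18.9 and 15.8 CPM under genistein. In PANC1 it was 148 and 110 CPM in the controls and 130 and 127 CPM under genistein, within the spread of the controls. CDKN1A rose by 1.52 ± 0.25 in MiaPaCa2 and had a fold change of 0.02 ± 0.14 in PANC1. Its difference of -1.50 (interval -2.13 to -0.88) had an adjusted p of 0.108 as deposited (limma-voom) and passed after GC correction, at -1.27. Of 38 genes of replication licensing and S phase, RRM2 was the one with a called difference, RRM2 and GINS4 rose in MiaPaCa2, and none was called in PANC1, against 2.28% and 2.05% of all genes that rose. After GC correction 5 rose in MiaPaCa2 and 1 fell in PANC1, against 4.39% and 5.07% of all genes. GINS1, GINS4, TK1 and RRM2 were then more positive in MiaPaCa2, as were 2.34% of all genes. Among 36 mitosis genes 4 fell in MiaPaCa2 (ASPM, CENPF, KIF18A, NUF2), against 1.01% of all genes, and none was called in PANC1 as deposited. After GC correction 6 fell in each line, CENPF, KIF18A and NUF2 in both. Of all genes 4.11% then fell in MiaPaCa2 and 5.07% in PANC1. No mitosis gene had a called difference as deposited. PLK1 and UBE2C, 2 of the 36, were more positive in MiaPaCa2 after GC correction, as were 2.34% of all genes.

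The study names several genes for genistein from these same libraries, so their values are no independent evidence. Of these, ITPR1, the calcium release channel of the endoplasmic reticulum, rose in both lines, from 12.0 and 11.1 CPM to 18.2 and 18.7 CPM in MiaPaCa2 and from 19.0 and 19.5 CPM to 27.1 and 26.3 CPM in PANC1. The difference of -0.20 had an interval from -0.56 to 0.16, and ITPR1 lost its PANC1 call after GC correction. The deposited mean FPKM of ITPR1 rose less than the CPM, from 3.87 to 4.47 in MiaPaCa2 and from 4.31 to 4.68 in PANC1. RXRA, the partner of VDR, was 101.4 and 117 CPM in MiaPaCa2 controls and 101.02 and 91.1 CPM under genistein. RXRA was called as lower in PANC1 by 0.69, with controls of 92.8 and 68.5 CPM and genistein libraries of 53.1 and 44.8 CPM, and this call was lost after GC correction. The differences of SP1 (-0.03), CASP9 (-0.03) and GPER1 (0.04) were near 0, with intervals from -0.29 to 0.22 for SP1, -0.55 to 0.48 for CASP9 and -1.31 to 1.39 for GPER1. SP1 fell in PANC1 after GC correction, by 0.49. CHRNA7, at 0.23 to 1.18 CPM, had a difference of -2.04 with an adjusted p of 0.28 (limma-voom). The estrogen receptor genes were hardly read: ESR1 had 0 reads in all 8 libraries and ESR2 0 to 5.

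Of 8 tested metallothionein and zinc export genes, MT1X rose in both lines, by 0.96 and 0.63, and MT1E in MiaPaCa2, by 0.73. After GC correction MT2A and SLC30A1 were more positive in MiaPaCa2, as were 2.34% of all genes. Of the 13 mitochondrially encoded genes none had a called difference as deposited. MT-ATP6, MT-CO3, MT-ND4 and MT-ND5 fell in MiaPaCa2, by 0.64, 0.51, 0.41 and 0.54, and none was called in PANC1. After GC correction 7 of the 13 fell in MiaPaCa2 and 1 fell in PANC1, against 4.11% and 5.07% of all genes. MT-ATP6 was 2770 and 3425 CPM in MiaPaCa2 controls and 1863 and 2061 CPM under genistein, and between 1886 and 2088 CPM in all 4 PANC1 libraries. The median difference of the mitochondrially encoded genes was 0.45 as deposited and 0.28 after GC correction, against 0.02 and -0.03 over all genes tested. The difference of MT-CYB was called after the correction.

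**Figure D4:**
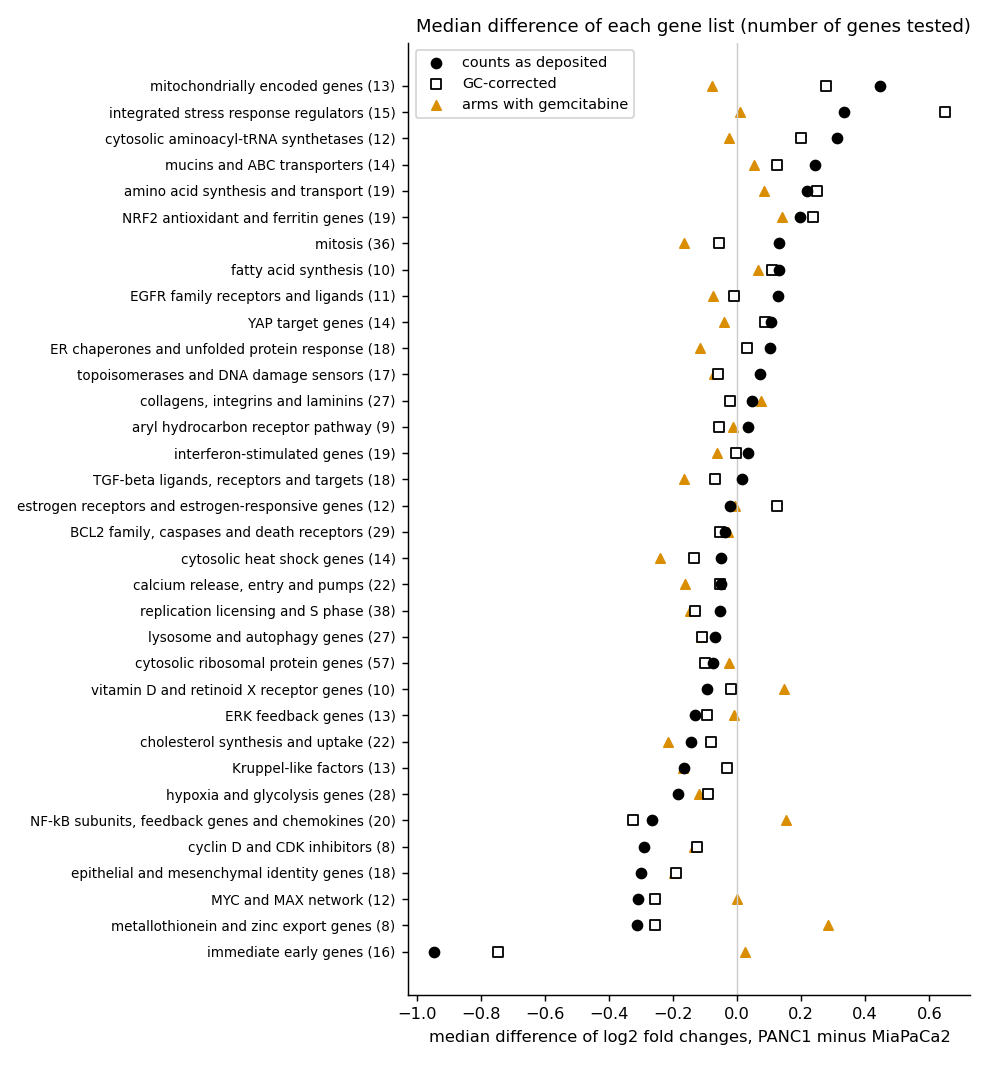
Median difference of log2 fold changes, PANC1 minus MiaPaCa2, of each of the 34 gene lists (number of genes tested in brackets), from the counts as deposited (circles), after GC correction (squares) and in the arms with gemcitabine (triangles). Circles run from -0.95 for the immediate early genes to 0.45 for the mitochondrially encoded genes, and the triangles of these lists lie at 0.03 and -0.08.

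The libraries with gemcitabine gave a separate estimate of the same contrast, co-treatment minus gemcitabine in PANC1 minus the same in MiaPaCa2, which shares no library with the comparison above. All 6 called differences had the same sign there, as had 55.9% of all genes tested. Of the 6, 4 passed the test again (19 genes, 0.106% of those tested, passed in these arms, limma-voom). Both tests took the spread of each gene from all 16 libraries. The estimates are therefore separate but the p-values are not, and a gene with a small spread is favoured in both. RP11-284F21.10 had a difference of 1.73, NPTX1 of -0.95 and RRM2 of -0.61. The values of FAM46C (-0.78) and VDR (-0.50) did not pass. VDR had a fold change of 0.96 in MiaPaCa2 and 0.47 in PANC1 there. The replicates of the PANC1 co-treatment group also followed GC content, with a Spearman correlation of -0.699. Of the 611 differences called after GC correction, 541 had the same sign in the gemcitabine arms (88.5%, against 59.8% of all genes). In these arms 2.08% of all genes were called, and 3 of the 611, SLC7A5 among them, were called in the opposite direction. CTGF (-1.07) and ABCC2 (1.19) were among the genes that passed in these arms without the correction. Other genes named above changed sign. The difference of DUSP6 went from -0.82 to 0.50 with gemcitabine, of FOS from -1.08 to 0.76, of JUN from -1.09 to 0.22 and of CYR61 from -0.40 to 0.20. That of ATF3 went from 0.66 to -0.77. None of them passed in these arms without the correction, and ATF3 passed with it, at -0.80 (adjusted p = 0.0286, limma-voom).

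**Figure D5:**
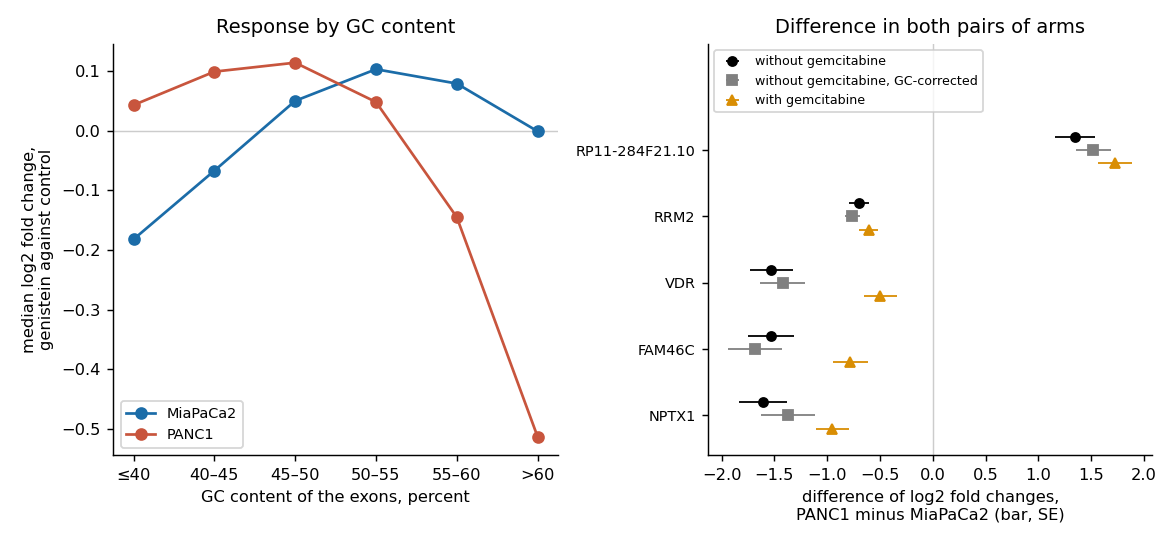
Left, median log2 fold change under genistein in 6 classes of gene GC content in each line; PANC1 lies above MiaPaCa2 in the 3 lowest classes and below it in the 3 highest, where it falls to -0.51. Right, the difference between the lines (± SE) for the 5 described genes without gemcitabine, as deposited and GC-corrected, and with gemcitabine; all 3 values of each gene lie on the same side of 0.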

How the data were processed

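RNA of 16 libraries, 2 per group, had been aligned to GRCh37. The submitters' processing notes name TopHat2 2.0.4, HTSeq 0.6.1, Cufflinks 2.1.1, Picard 1.29 and SAMtools. The authors deposited raw read counts per gene, which were used as deposited, and FPKM values, which served for the expression criterion and 1 alternative. The annotation release and the strand setting are not given in the sources used here, so that reads of overlapping genes on opposite strands may be mixed. Of the 63677 identifiers 17863 passed filterByExpr. Of those tested, 14 had no FPKM value, and for the 128 identifiers on several FPKM rows the first row was used.

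Counts were analysed with limma-voom (limma 3.58.1, edgeR 4.0.16, R 4.3.3) after TMM scaling, with one mean per group over all 16 libraries, two-sided tests and Benjamini-Hochberg adjustment over all genes tested. The adjusted p-values of the report come from this fit unless another is named. CPM values are TMM-scaled. GC correction subtracted a loess trend (span 0.3) of each library's log2 values over exon GC content, which 375 tested genes lacked. The scripts were tested on simulated counts, which held no trend over GC content that differed between libraries. That test cannot show how well the GC correction works on these libraries. With 2 libraries per group and no source culture named in the labels, p-values measure the spread between these libraries.

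Genes named were those with the largest called differences, at most 10 in each direction, with an FPKM above 1 in some group and the same sign in all 4 pairings of replicates. Further names were the 6 largest shared rises and 6 largest shared falls, calls in opposite directions, called members of 34 gene lists, and genes the study names. Other list members are given as values. The members and lists were chosen with earlier results of these data known. Alternatives were edgeR and DESeq2 1.42.0 tests, other scaling and filters, FPKM values, thinning, a replicate block, GC correction and leaving out each library. Quality weights, GC correction with a library left out and the arms with gemcitabine were added after seeing the data. Some results, 1 of the 6 called differences among them, are not reported here. Depth was 12943482 to 31991860 counts in the 8 libraries.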

Additional observations from a re-analysis of the deposited data

Results flagged for a closer look

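For 5 genes the test of the difference between the lines itself passed (limma-voom, adjusted p = 0.0279). The response to genistein, PANC1 minus MiaPaCa2 on the log2 scale, was -1.61 for NPTX1, -1.54 for FAM46C, -1.53 for VDR, -0.70 for RRM2 and 1.35 for RP11-284F21.10. No explanation was tested for any of them. NPTX1, FAM46C and VDR had higher control levels in PANC1 than in MiaPaCa2, and RP11-284F21.10 had a higher one in MiaPaCa2. RRM2 had nearly the same control level in both lines.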

How the results depend on the processing

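The counts of calls moved widely with the analysis. As deposited there were 6 differences, 587 MiaPaCa2 calls, 715 PANC1 calls, 118 calls shared in direction and 2 opposite ones. In this order, DESeq2 gave 185, 1005, 1310, 202 and 8, GC correction 611, 1485, 1510, 368 and 15, and quality weights 35, 1667 and 336 for the first 3. The edgeR test gave 19 differences and 4 opposite calls. With only the 8 libraries there was 1 difference, with 199 MiaPaCa2 calls and 48 shared ones. Without a low-count filter there was 1 difference and 76 shared calls. On log2(FPKM + 1) values there were 3 differences and 1 opposite call, and without the FPKM criterion 4 opposite calls. Thinning to the shallowest library left 0 differences (limma-voom, 2240 at an unadjusted p under 0.05). A log2 fold change of at least 1 gave 123 MiaPaCa2, 194 PANC1, 4 shared and 0 opposite calls. Models of each line alone gave 1334 MiaPaCa2, 10 PANC1, 6 shared and 0 opposite calls. The arms with gemcitabine gave 19 differences. The causes were not tested.

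Replicate numbers did not pair the libraries (correlations of deviations -0.055 and 0.06). With a replicate block there were 0 differences (limma-voom, 1627 at an unadjusted p under 0.05), 233 MiaPaCa2, 99 PANC1, 20 shared and 0 opposite calls, and with GC correction and replicate block 327, 1329, 1362, 328 and 10.

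Leaving out 1 library gave 0 to 86 differences, 61 to 996 MiaPaCa2 calls, 11 to 1797 PANC1 calls, 4 to 199 shared calls and 0 to 8 opposite calls. The 86 differences came without PANC1 control replicate II. With GC correction it was 168 and 243 without MiaPaCa2 control I and II, 219 and 310 without MiaPaCa2 genistein I and II, 389 and 1387 without PANC1 control I and II, and 184 and 194 without PANC1 genistein I and II. The difference reversed for TNFAIP2 (GC correction, 0.44), PYCR1 (GC correction 0.51, with the replicate block 0.51) and SLC7A5 (0.37 and 0.37). Library size alone moved the median difference of all genes from 0.02 to 0.12.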

Other observations

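The 20 gene lists not described above had median differences between -0.31 (MYC and MAX network) and 0.24 (mucins and ABC transporters), and in these lists VDR was the 1 member whose difference passed as deposited (limma-voom). In PANC1 alone CYP1A1, a xenobiotic oxidase, HERPUD1 and ATF6 of the unfolded protein response and NPC1, a lysosomal cholesterol transporter, rose, and the heat shock genes HSPB1 and HSPA1A and the collagen gene COL1A1 fell. In MiaPaCa2 alone BCL2L11, the pro-apoptotic protein BIM, KLF5, KLF10 and HBEGF, a ligand of the EGF receptor, rose, and COL1A2 and COL5A2 fell. These names were chosen after their values were seen, and their differences between the lines did not pass as deposited. After GC correction HERPUD1, ATF6, NPC1 and HSPA1A lost their calls in PANC1 and KLF10 its call in MiaPaCa2, and the difference of BCL2L11 passed.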
